A study of Mus musculus with 6 samples.

Results

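BC1 RNA, the ID short interspersed elements (SINEs) and the B4 SINEs were examined in cultured mouse embryonic fibroblasts with and without β-actin. The set was taken by name, class and family from count files of 1336 rows, each a repeat subfamily or a kind of structural RNA summed over all its genomic copies. It held 8 rows: BC1_Mm, the 3 rows of SINE family ID (ID, ID2 and ID4) and the 4 rows of SINE family B4 (B4A, ID_B1, RSINE1 and a row itself named B4). All 8 passed the filter on low counts, as did 1193 of the 1336 rows. The row named B4 is described apart because its level moved with the ribosomal RNA of the library. The 6 libraries came from 3 wild-type (WT) and 3 Actb-/- (KO) samples of BALB/c fibroblasts from 10.5 day embryos, with no treatment named. Actb encodes β-actin, a protein of the cytoskeleton and the nucleus. The series calls the 3 samples of a genotype biological replicates, and the labels do not say whether they came from separate embryos or cultures, so the p-values measure the spread between these samples. No row is a protein-coding gene, so neither the loss of Actb RNA nor the fibroblast identity of the cells could be checked here.

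BC1, brain cytoplasmic RNA 1, is a small noncoding RNA made by RNA polymerase III. It is known from neurons, where it lies in dendrites and represses the start of translation, and from germ cells. Its 5′ part descends from an alanine tRNA, and reverse-transcribed copies of it, inserted across rodent genomes by the LINE-1 machinery, are the ID elements. B4 elements join an ID-like part to a part resembling B1, the SINE derived from 7SL RNA. RSINE1 is a related rodent element of the same family, B4A is a variant of B4, and ID_B1 is named for the ID and B1 sequences it unites. Many such copies lie in introns and transcript ends, and their RNA can be part of longer RNA polymerase II transcripts.

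The gene of the source RNA, Bc1, lies at chr7:144914470-144914637 on the plus strand of GRCm38, the build named in the submitters' notes. GENCODE M21 annotates it as a lincRNA with a single exon, overlapped by 0 other annotated genes. LTO1, the nearest protein-coding gene, starts 463 bases further along on the same strand. The transcript is shown because its parts bear on which reads BC1 can share with ID copies. Capitals mark the A box, an internal promoter element of RNA polymerase III, at bases 14 to 24, and GGTTCG, the letters that open the B box, at bases 57 to 62.
BC1: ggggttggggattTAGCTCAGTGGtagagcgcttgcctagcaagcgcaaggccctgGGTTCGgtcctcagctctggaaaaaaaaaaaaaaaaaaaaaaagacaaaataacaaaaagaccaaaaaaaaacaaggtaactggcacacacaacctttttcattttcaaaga

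Both motifs were searched on both strands, had no second match in the 168 bases and did not overlap each other. Among 32851 windows of 300 bases around annotated gene starts (RefSeq, GRCm38.p6), 22.4% held an A box and 4.72% held GGTTCG, so neither is rare. The transcript was cut into parts at its runs of A. Bases 1 to 76, before the first long run, are called the ID-like part. Bases 77 to 128 are rich in A, and bases 129 to 168, after the last long run, form the 3′ part. No ID sequence was aligned to these parts, and the matched genes below were not examined for ID copies. Of 52 windows of 25 bases that lie wholly in the ID-like part, 52 had an exact match in an annotated transcript of another gene, each in 5 to 16 genes, counting both strands. Of 16 such windows in the 3′ part, 0 had one. The search covered 141767 transcripts of 55450 genes and no sequence outside them, so genomic copies elsewhere were not counted. The length of BC1 differs between annotations. RefSeq gives Bc1 as 154 bases, from 144914470 to 144914623, so the last of the 168 bases shown here lie outside it. RefSeq also lists Bc1-ps1, a pseudogene of 166 bases on chromosome 7, and whether the search held it was not examined. The ID-like part as a whole matched 35 other genes, 17 on the same strand and 18 on the opposite strand. Below are one of the ID-like windows shared by the most genes, bases 2 to 26, which like bases 4 to 28 occurred in 16 of them, and the first window of the 3′ part, bases 129 to 153, which occurred in 0.
ID-like window: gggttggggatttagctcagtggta
3′ window: caaggtaactggcacacacaacctt

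**Figure D1:**
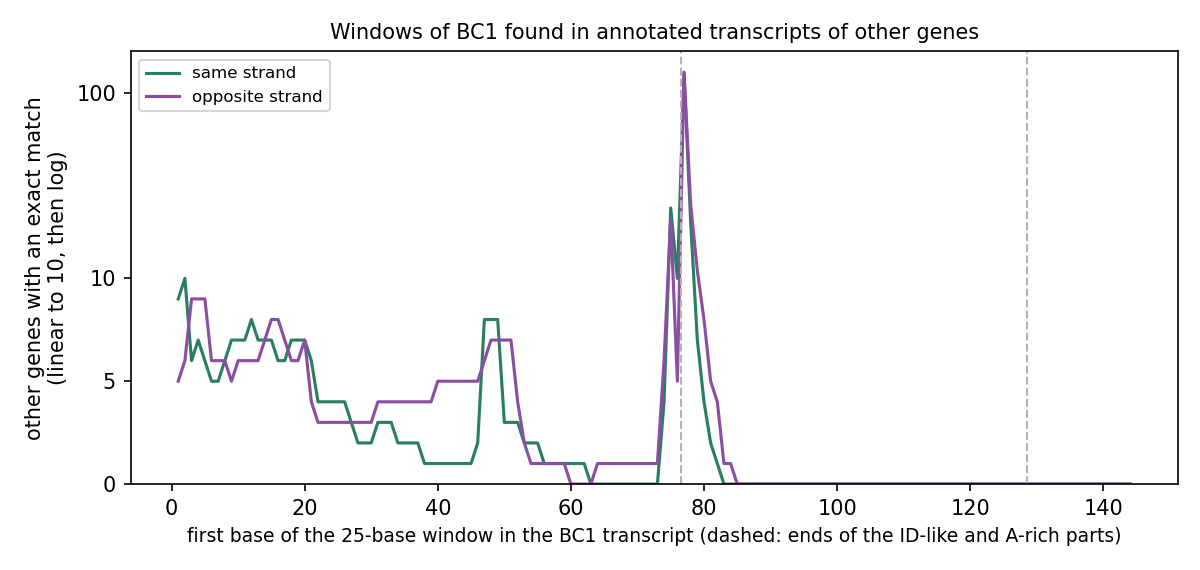
Number of other annotated genes with an exact match to each window of 25 bases of BC1 (y axis, linear to 10 and then logarithmic) by the first base of the window (x axis), on the same strand and on the opposite strand. Windows of the ID-like part matched 5 to 16 genes, windows at the start of the A-rich part matched up to 257, and windows of the 3′ part matched 0.

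The counts of BC1_Mm cannot be divided by these parts, since the files give a single sum per row. The sources used here do not say how reads that fit both BC1 and ID copies were assigned, and its part in the results was not tested. A consensus sequence of the ID and B4 rows was not used here.

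Library totals ran from 7708630 to 19288620 counts, and rRNA took 32.4%, 84.1% and 73.7% of them in the 3 WT libraries (replicates 1, 2 and 3) and 84.8%, 52.9% and 77.0% in the 3 KO libraries. Exact 95% intervals (Clopper-Pearson) for these shares were at most 0.0661 percentage points wide, and like all intervals given here they cover counting error only. The 8 rows together held between 347625 and 683321 counts per library, and the smallest single value was 1863 counts, for ID in WT replicate 2. Levels are counts per 1000000 (CPM) of an effective library size, which the TMM method (trimmed mean of M-values) sets, named normalized CPM. This scale is set by most repeat rows, so a shift common to nearly all of them would not show. Where 3 values are given for a genotype, they are those of replicates 1, 2 and 3 in that order. Of the 7 members other than row B4, WT replicate 1, lowest in rRNA, had the lowest WT level of 7 and WT replicate 2, highest in rRNA, the highest WT level of 6. Among the KO libraries replicate 1, highest in rRNA, had the highest level of 7, but replicate 2, lowest in rRNA, had the lowest level of only 1 and replicate 3 that of 6, so the KO order followed the rRNA share in part. The part of the rRNA share in the differences between genotypes was not tested beyond the values given beside them.

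The main comparison asked which of these RNAs differ between KO and WT cells. BC1_Mm was the only member whose 3 KO libraries all lay below the 3 WT libraries, at 83.5% of the WT mean, and it did not pass the test over all rows. The ID rows and B4A, ID_B1 and RSINE1 lay between 87.8% and 98.1% of their WT means, with overlapping groups. Of the 8 members 0 were called in either direction at an adjusted p of 0.05 (edgeR quasi-likelihood test, Benjamini-Hochberg over 1193 rows), where 5.78% of all tested rows were called, 3.60% lower and 2.18% higher in KO. Every adjusted p is from this test unless another tool is named. At an unadjusted p under 0.05 there was 1 member, BC1_Mm, against 20.9% of all tested rows. By DESeq2 and by limma-voom 1 member, BC1_Mm, passed, where 6.45% and 5.28% of all tested rows were called. In edgeR with a covariate for the rRNA level 2 members passed, BC1_Mm and ID_B1, where 9.14% of all tested rows were called. The median log2 fold change of the 7 members other than row B4 was -0.09, beside 0.01 over all tested rows. All 7 had fold changes below 0, as did 47.7% of all rows. In other SINE families 16 of 16 B1 rows, 5 of 5 B2 rows and 4 of 5 MIR rows also lay below 0, so the direction was not particular to the members. ID, ID4, B4A and RSINE1 lay above 0, at 0.03, 0.05, 0.09 and 0.03, when SINE counts without row B4 served as the library size. In bulk RNA a lower level per cell and fewer cells that make the RNA cannot be told apart.

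**Figure D2:**
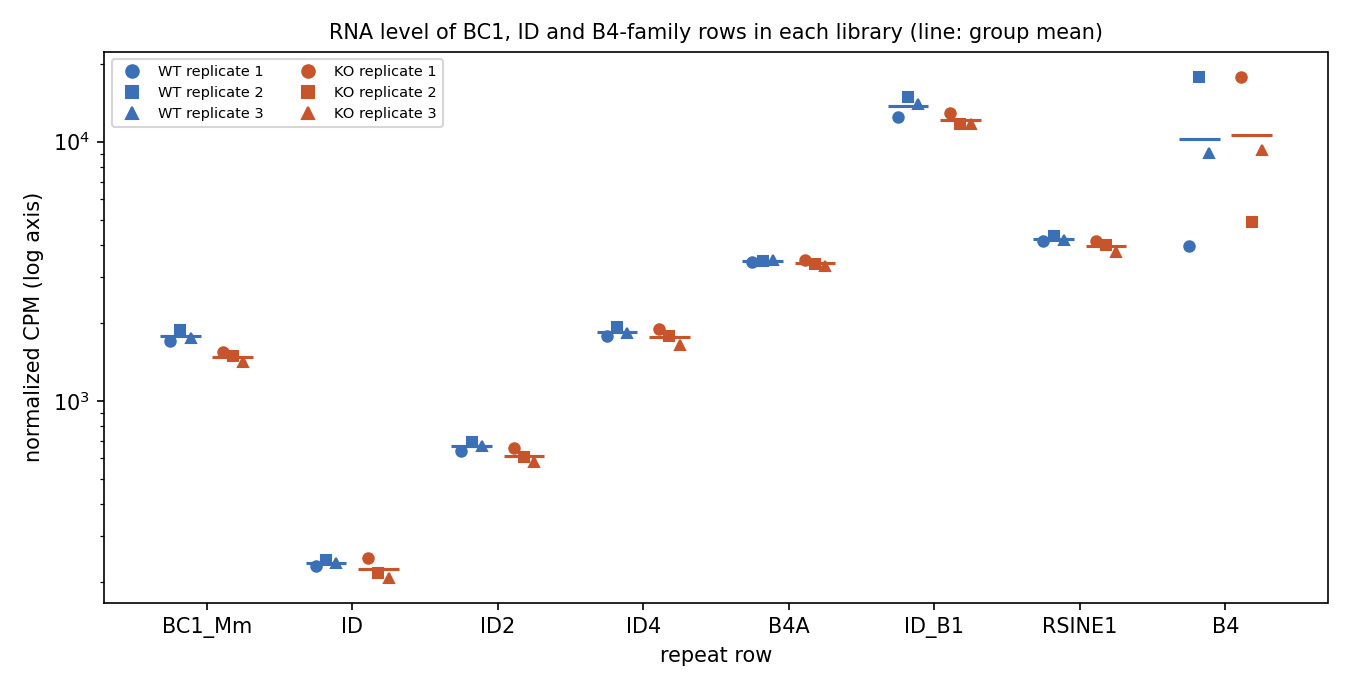
Normalized CPM (y axis, logarithmic) of the 8 rows in each of the 6 libraries; marker shape gives the replicate, colour the genotype and the short line the mean of 3 libraries. The KO points of BC1_Mm, 1409.7 to 1543, lie below its WT points, 1698 to 1871, the groups of the other rows overlap, and row B4 spans 3969.6 to 17832.5.

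BC1_Mm stood at 1698, 1871 and 1747 normalized CPM in WT replicates 1, 2 and 3, and at 1543, 1484 and 1409.7 in KO replicates 1, 2 and 3. The highest KO library thus lay below the lowest WT library. Of all tested rows, 25.8% had groups that did not overlap, 13.4% with KO lower, so such a separation was common in this table. The means were 1772 ± 89.4 (SD, n = 3) in WT and 1479 ± 67.0 in KO. The log2 fold change was -0.26 ± 0.09 (SE, adjusted p = 0.131, 0.0170 before adjustment) and did not pass. In order of p it was row 155 of 1193. The value lay between -0.60 and -0.14 in the 17 alternative settings that could give it, and its adjusted p between 0.00777 and 0.998. It passed in 3 of them, at -0.26 by DESeq2 (adjusted p = 0.00777), -0.26 by limma-voom (adjusted p = 0.0335) and -0.27 in edgeR with the rRNA covariate (adjusted p = 0.0106). The smallest change, -0.14 (adjusted p = 0.646), came in edgeR with SINE counts without row B4 as the library size. Libraries of like rRNA rank were also paired, a comparison added after the data were seen. The KO minus WT log2 difference was -0.19 for the pair lowest in rRNA (KO replicate 2 and WT replicate 1). It was -0.31 for the middle pair (both replicate 3) and -0.28 for the highest (KO replicate 1 and WT replicate 2). Since every KO level lay below every WT level, any pairing would give KO below WT, and the sign is no added evidence. Of all tested rows, 22.4% had KO below WT in each of the 3 pairs.

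BC1_Mm is grouped in the files with other small cytoplasmic RNAs, the Y RNAs and 4.5S RNA, in the family scRNA, of whose counts it took between 88.4% and 89.3% in each library, with exact 95% intervals at most 1.05 percentage points wide. The total of this family passed the test over family totals, of which 8.33% were called, and its log2 fold change was -0.25 ± 0.06 (SE, adjusted p = 0.0284). That call rests mainly on BC1_Mm counts and is no separate evidence. It was lost when WT replicate 2 was left out (-0.22), and likewise for WT replicate 3 (-0.25), for KO replicate 2 (-0.25) and for KO replicate 3 (-0.22), with DESeq2 size factors (-0.25), with a replicate block (-0.25), on total counts (-0.59) and without WT replicate 1 and KO replicate 2 together (-0.27).

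The ratio of BC1_Mm to ID counts within a library, which does not depend on scaling between libraries, asked whether these rows moved apart. Each row is a sum over genomic copies, and the part of BC1_Mm counts that came from the Bc1 gene was not tested. BC1_Mm had 64.1, 65.3 and 63.8 counts per 100 ID-family counts in the WT libraries and 55.3, 57.0 and 57.9 in the KO libraries. The WT libraries lay within 1.56 counts of each other, and the highest KO library lay 5.87 counts below the lowest WT library. Exact 95% intervals were 62.8 to 64.8 in that WT library (replicate 3) and 56.9 to 58.9 in that KO library (replicate 3). The means were 64.4 ± 0.830 (SD, n = 3) and 56.8 ± 1.33, a difference in log2 ratio of -0.18 that was larger than the spread within either genotype. The exact two-sided permutation p was 0.1, the smallest that 3 against 3 libraries allow, and 0.5 after Benjamini-Hochberg adjustment over 5 such measures. Among the 1190 tested rows outside the ID family, the count per ID count separated the genotypes with KO lower in 8.66%, and in either direction in 24.2%. When edgeR was run on all rows with the ID sum as library size, a setting added after the data were seen, the log2 fold change of BC1_Mm was -0.18 ± 0.06 (SE) and did not pass (adjusted p = 0.204).

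Leaving out each library in turn kept the difference in log2 ratio between -0.20 and -0.16. Against other denominators it was -0.16 for the B1 sum (exact permutation p = 0.2), -0.24 for the sum of MIR, an ancient SINE family (exact permutation p = 0.1), and -0.12 for the summed B4A, ID_B1 and RSINE1 counts (exact permutation p = 0.1). The KO mean of the ratio thus lay below the WT mean against each of these denominators, by unequal amounts.

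**Figure D3:**
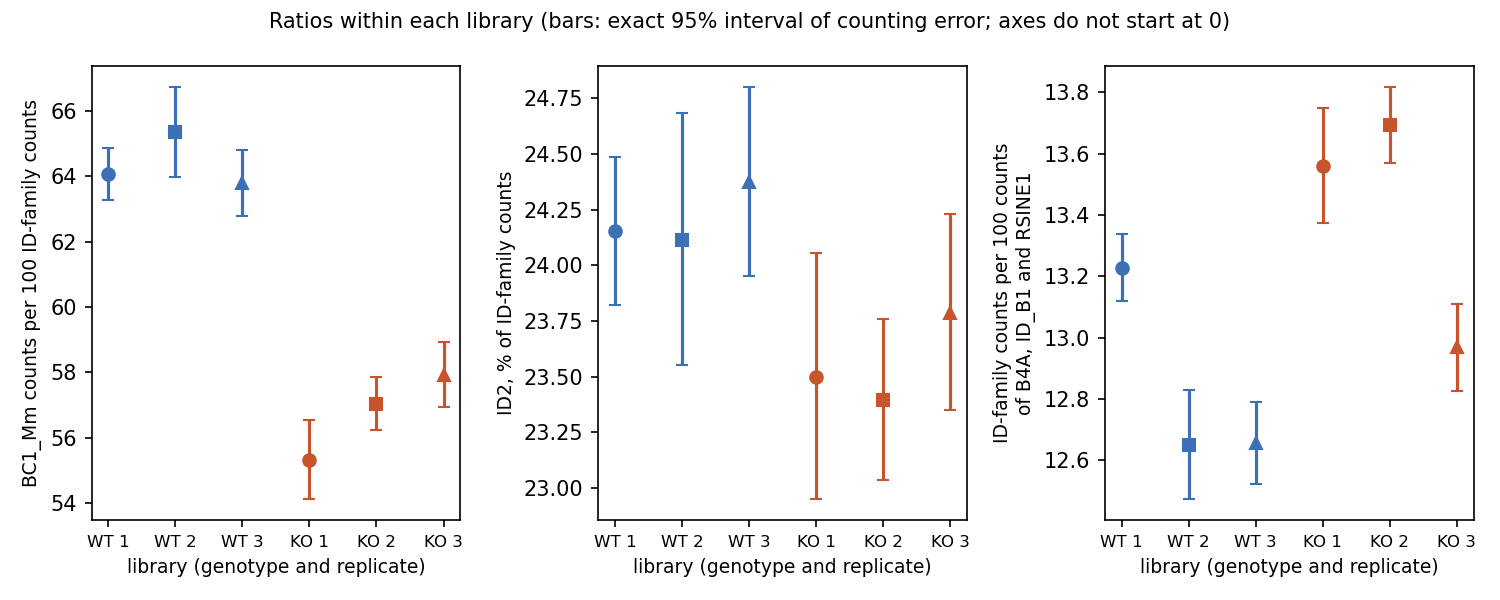
Ratios in each of the 6 libraries with exact 95% intervals of counting error: BC1_Mm per 100 ID-family counts, ID2 as a percent of ID-family counts, and ID-family counts per 100 counts of B4A, ID_B1 and RSINE1; the axes do not start at 0. The first lies at 63.8 to 65.3 in WT and 55.3 to 57.9 in KO, the second at 24.1% to 24.4% and 23.4% to 23.8%, and the third overlaps between genotypes.

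No ID row passed the test, and the groups overlapped in each. ID4, the row with the most counts of the family, stood at 1779, 1931 and 1834 normalized CPM in the WT libraries and at 1887, 1776 and 1647 in the KO libraries. KO replicate 1 lay above 2 of the WT libraries, and the log2 fold change was -0.06 ± 0.09 (SE, adjusted p = 0.757). ID2 was at 640.1, 691 and 667 in WT and 656, 609 and 579 in KO, with a log2 fold change of -0.12 ± 0.07 (SE; adjusted p = 0.419). Its KO replicate 1 also fell inside the WT range. ID, the row with the family's own name, was at 231, 242 and 237 in WT and 248, 217 and 208 in KO, so the highest and the lowest values of all were both KO libraries (log2 fold change -0.08 ± 0.07 SE, adjusted p = 0.597). The summed ID counts gave 2751 ± 107 normalized CPM in WT and 2608 ± 178 in KO (SD, n = 3), and their log2 fold change was -0.08 ± 0.07 (SE, adjusted p = 0.507). No library decided this: the fold change of the sum lay between -0.13 and -0.03 when each was left out.

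Shares within the family were steady. ID4 took 67.0% to 67.4% of ID-family counts in the WT libraries and 67.6% to 68.3% in the KO libraries. ID2 took 24.1% to 24.4% in WT and 23.4% to 23.8% in KO, so in both rows the genotypes did not overlap while differing by under 1 percentage point. These rows make up most of the family, so a higher share of one nearly fixes a lower share of the other, and 24.2% of tested rows outside the family also had non-overlapping counts per ID count. The exact 95% intervals were up to 1.24 percentage points wide for ID4 and 1.13 for ID2, wider than the gaps between the genotypes. As a share of all SINE counts the ID family took 3.60%, 2.80% and 3.23% in the WT libraries and 2.89%, 3.63% and 3.21% in the KO libraries, with exact 95% intervals at most 0.0740 percentage points wide. These shares were lowest in the libraries highest in rRNA and overlapped between genotypes (exact two-sided permutation p = 0.8, n = 3 per genotype, 0.8 after adjustment over the 5 measures).

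Of the B4 family apart from row B4, ID_B1 had the lowest KO level relative to WT. It stood at 12477, 14853 and 13969.6 normalized CPM in the WT libraries and at 12951, 11648 and 11681 in the KO libraries. The lowest KO libraries lay under the WT range and KO replicate 1 lay inside it, and the log2 fold change was -0.19 ± 0.14 (SE, adjusted p = 0.499). With the rRNA level as a covariate ID_B1 passed, at -0.21 (adjusted p = 0.0276; its adjusted p ran from there to 0.998 over 18 alternatives). Between libraries of like rRNA rank its log2 differences were -0.10, -0.26 and -0.20 from the pair lowest in rRNA to the highest. ID2, ID4 and RSINE1 also lay below 0 in 3 of 3 such pairs, ID and B4A in 2 of 3, and 22.4% of all tested rows in 3 of 3, so this was common in the table.

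RSINE1 was at 4130.2, 4332 and 4175 normalized CPM in WT and 4141, 3983 and 3767 in KO, again with KO replicate 1 inside the WT range, and its log2 fold change was -0.09 ± 0.10 (SE, adjusted p = 0.686). B4A varied least of the members, by 1.05 times from its lowest to its highest library. It was at 3427, 3454 and 3492 in WT and 3486, 3365 and 3319 in KO (log2 fold change -0.03 ± 0.09 SE, adjusted p = 0.911). Together B4A, ID_B1 and RSINE1 gave 21437 ± 1314 normalized CPM in WT and 19448 ± 986 in KO (SD, n = 3). The log2 fold change of this total was -0.14 ± 0.14 (SE, adjusted p = 0.519), and it passed under the rRNA covariate, at -0.16 (adjusted p = 0.0348), a setting that called 23.3% of all family totals. It took 24.95% ± 2.55 of SINE counts in the WT libraries and 24.2% ± 2.66 in the KO libraries (SD, n = 3, p = 0.7 by exact two-sided permutation). ID_B1 supplied most counts of this total, between 61.3% and 65.6% in each library, with exact 95% intervals at most 0.463 percentage points wide.

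Row B4 varied far more between libraries than the other B4-family rows. It stood at 3969.6, 17832.5 and 9024 normalized CPM in the WT libraries and at 17749, 4908 and 9253 in the KO libraries. The order followed the rRNA level, from WT replicate 1 and KO replicate 2 through WT replicate 3 and KO replicate 3 to WT replicate 2 and KO replicate 1, with only the last pair exchanged. Its highest library stood 4.49 times above its lowest and the highest rRNA level 19.3 times above the lowest, whereas B4A differed by 1.05 times, RSINE1 by 1.15 and ID_B1 by 1.28. A straight line over the 6 libraries, given as a description, had 7.39 counts of row B4 per 1000 rRNA counts and an intercept of 3079.6 normalized CPM. The largest distance from it was 413 normalized CPM, in KO replicate 3. Among the 21 B1 and B2 rows, 4 had the libraries in the same order of low, middle and high rRNA: PB1D9 and B1_Mus2 of the B1 family, and B3 and B3A of the B2 family. Their highest library stood 2.45, 1.82, 1.57 and 1.34 times above the lowest, so the pattern was not limited to row B4. Nor was it limited to SINEs. The totals of LINE-1 and of ERVK, a family of endogenous retroviruses, had this order too, though not every family did. ERVK ran from 16548 normalized CPM in WT replicate 1 to 84737.5 in KO replicate 1. The share of all rows in this order was not counted.

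The comparison of genotypes in row B4 is limited by this spread. Its means were 10275 ± 7016 normalized CPM in WT and 10637 ± 6531 in KO (SD, n = 3), and its log2 fold change was 0.05 ± 0.58 (SE, adjusted p = 0.973). The sign depended on the libraries used: without WT replicate 1 the value was -0.34 and without WT replicate 2 it was 0.71, and under the rRNA covariate it was -0.14 (adjusted p = 0.416). Row B4 took 5.39% of SINE counts in WT replicate 1 and 18.4% in KO replicate 1, its extremes, with exact 95% intervals of 5.35% to 5.42% and 18.3% to 18.5%. Any sum over the whole B4 family carries this spread, 31712 ± 8284 normalized CPM in WT and 30085 ± 7430 in KO, and its log2 fold change of -0.08 (adjusted p = 0.933) lay between -0.29 and 0.14 when each library was left out.

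**Figure D4:**
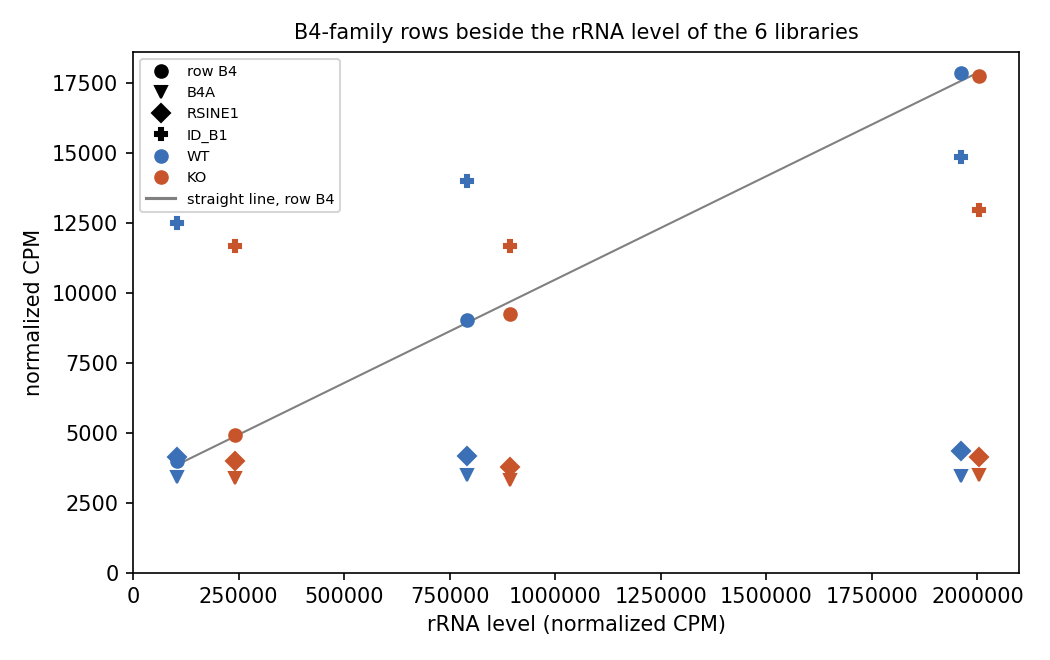
Normalized CPM (y axis) of row B4, B4A, RSINE1 and ID_B1 against the rRNA level of the 6 libraries (x axis, normalized CPM), coloured by genotype, with the straight line of row B4. Row B4 runs from 3969.6 to 17832.5 along the rRNA level, and B4A stays between 3319 and 3492.

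To see which members moved apart, the log2 ratio of every pair of the 7 rows other than row B4 was compared between genotypes, a set of 21 pairs added after the data were seen. Of the 6 pairs with BC1_Mm as numerator, 5 separated the genotypes, all with KO lower. Against the same 5 denominators, between 6.96% and 12.2% of all other tested rows did so with KO lower, and the 5 pairs share the BC1_Mm counts, whose levels were already apart. The exception was BC1_Mm over ID_B1, with a difference of -0.08 and overlapping groups. BC1_Mm over RSINE1 stood at -1.25 ± 0.0362 in WT and -1.42 ± 0.00370 in KO (log2 ratio, SD, n = 3). Of the other 15 pairs 2 separated the genotypes, ID2 over ID4 with a difference of -0.05 and B4A over RSINE1 with 0.06. Of all other tested rows, 22.9% separated the genotypes in either direction against ID4, and 28.5% against RSINE1, so such separations were common. Each separated pair had an exact two-sided permutation p of 0.1, the smallest possible, and 0.3 after adjustment over the 21 pairs. Pairs that share a row are not independent. The ID family against B4A, ID_B1 and RSINE1 together stood at 13.2, 12.6 and 12.7 counts per 100 in the WT libraries and at 13.6, 13.7 and 13.0 in the KO libraries, with exact 95% intervals at most 0.376 wide, and the groups overlapped (difference in log2 ratio 0.06, exact permutation p = 0.2, 0.5 adjusted over the 5 measures).

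RNAs related to the members by origin were set beside them, as lists chosen by known relation. Alanine tRNAs, the ancestors of BC1, had 0 of 3 rows called, with a median log2 fold change of -0.10. tRNA-Ala-GCY, the row with the smallest p, was at 13.1 ± 2.69 normalized CPM in WT and 9.23 ± 1.58 in KO (SD, n = 3) and did not pass (adjusted p = 0.179). Among 16 B1 rows, relatives of the B1-like part of B4, 0 were called and 16 lay below 0, with a median of -0.10. Its row with the smallest p was B1_Mm, at 1039 ± 39.8 and 952 ± 22.6 (adjusted p = 0.381). The B2 rows, tRNA-derived SINEs of another origin, had 1 of 5 called, B2_Mm1a, which fell to 65.2% of its WT mean (adjusted p = 0.00429), and a median of -0.26. MIR rows had 0 of 5 called and a median of -0.02, with MIR3 at -0.05 (adjusted p = 0.748).

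Other small RNAs made by RNA polymerase III, tRNAs left out, were also set beside BC1. Of 9 rows 7 were tested and 0 called, with 6 below 0 and a median of -0.21. U6, the spliceosomal RNA with the smallest p of the list, was at 42.1 ± 3.002 normalized CPM in WT and 36.3 ± 1.18 in KO (adjusted p = 0.0953). 7SLRNA, the signal recognition particle RNA from which B1 descends, had a KO-to-WT log2 fold change of -0.34 (adjusted p = 0.278). In the list 4 of 7 rows had groups that did not overlap, each with KO lower, U6 and 7SLRNA among them, beside 13.4% of all tested rows. The list's median and that of the members are descriptions of these libraries, and BC1_Mm at -0.26 lay within the range of this list, -0.64 to 0.44. Rows named for tRNAs, which RNA polymerase III also makes, were added after their values were seen. They too sum over genomic copies, and which polymerase made the counted RNA was not tested here or for the list above. Of 45 tRNA rows 39 were tested, 13 were called lower and 0 higher in KO, with a median of -0.78. Of all tested rows 3.60% were called lower and 2.18% higher. The total of the tRNA rows fell, at 214.6 ± 11.5 normalized CPM in WT and 139.7 ± 4.54 in KO (SD, n = 3). Its log2 change was -0.62 (adjusted p = 0.000154), where 8.33% of family totals were called, and it did not pass on total counts (-0.97). Of 3 rRNA rows 0 were called, with a median of 0.18 and 5S at 0.44 (adjusted p = 0.601).

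The rows whose levels ran most like a member over the 6 libraries were found by Pearson correlation of log2 normalized CPM among the 1185 tested rows that are not members. The points share libraries, scaling and genotype, and with 6 points many rows come close: 28 rows correlated with BC1_Mm above 0.95. Nearest to BC1_Mm were MT-int, an internal region of a MaLR retrotransposon (r = 0.995), B2_Mm1t, a B2 SINE (r = 0.994), and MMERGLN-int, an internal region of a GLN endogenous retrovirus (r = 0.994). Their log2 fold changes were -0.23, -0.36 and -0.44, and MT-int and MMERGLN-int were called (adjusted p = 0.0448 and 0.0192). Of all tested rows 3.60% were called lower in KO. Since the genotypes did not overlap in BC1_Mm, rows picked for likeness to it tend to share its direction and are no separate evidence. The ID sum ran most like MamSINE1, an old tRNA-derived SINE (r = 0.992), and PB1D10 and PB1D11 of the B1 family (both r = 0.988), of which 0 were called. Row B4 was nearest to the LINE-1 rows L1MdV_I (r = 0.999), L1MdA_VI (r = 0.998) and L1MdA_I (r = 0.995), whose log2 fold changes were 0.02, 0.02 and -0.04.

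**Figure D5:**
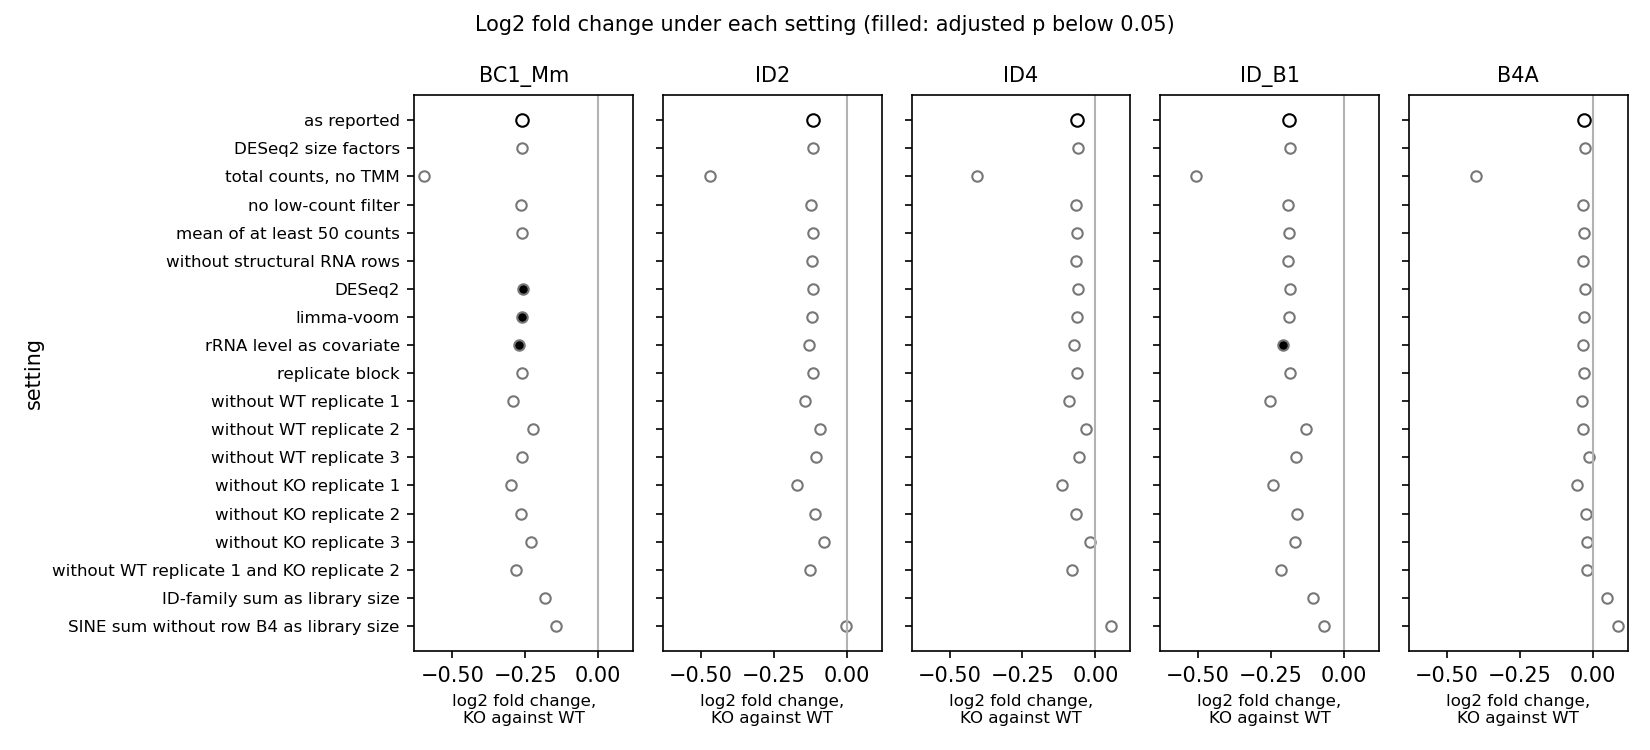
Log2 fold change of KO against WT (x axis) for BC1_Mm, ID2, ID4, ID_B1 and B4A under the reported and 18 alternative settings (y axis); filled points have an adjusted p below 0.05. BC1_Mm lies between -0.60 and -0.14 and has no value without structural RNA rows. B4A crosses 0 when ID or SINE counts serve as the library size, and ID4 when SINE counts do. ID2 and ID4 have no value with ID counts as the library size.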

How the data were processed

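RNA was sequenced from total RNA of 3 WT and 3 KO mouse embryonic fibroblast samples after rRNA depletion with TruSeq Ribo-Zero, per the labels' protocols. FastQC 0.11.5, Trimmomatic, Bowtie2 and the builds mm10 and GRCm38 are named, per the submitters' processing notes. The authors deposited estimated counts per repeat row, called fraction counts in the file names and not normalized. All values were whole, so rounding changed none. Not given in the sources used here are the counting tool, the repeat annotation, the use of strand and the division of reads among similar rows. Structural RNA made up 67 rows and none was a blank or total row.

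The analysis used edgeR 4.0.16 in R 4.3.3: filterByExpr kept 1193 of 1336 rows, TMM set effective library sizes, and genotypes were compared by quasi-likelihood tests, adjusted by the Benjamini-Hochberg method with a threshold of 0.05. Standard errors came from the test statistic. Family totals with a mean of at least 10 counts (60, the B4 family with and without row B4 and row B4 alone included) were tested with the same library sizes. Shares and ratios were compared by exact two-sided permutation tests over libraries. Log2 CPM for likeness used a prior count of 2. BC1 sequence and position came from GENCODE M21, promoter windows from RefSeq. The row test was tested on simulated counts of these rows with known fold changes. Alternatives included DESeq2 1.42.0 and limma 3.58.1 (voom). Every member was named, with the 3 rows most like BC1_Mm, the ID sum and row B4, and the row of smallest p of each related list. The members and lists were chosen with earlier results of these data known. Replicates of a genotype differed by far more than sampling noise (chi-square over degrees of freedom at least 477 for each pair).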

Additional observations from a re-analysis of the deposited data

How the results depend on the processing

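Of the settings tried, 69 rows were called as reported, against 0 on total counts (3 at an unadjusted p under 0.05 in edgeR), 41 without structural RNA rows, 109 with the rRNA level as a covariate, 9 without WT replicate 1 and KO replicate 2, 38 with the ID sum and 26 with the SINE sum without row B4 as library size, and 22 to 69 when each library was left out. On total counts the median of all rows moved to -0.36 and that of the 7 members to -0.46. Members called were 0 as reported, 1 with DESeq2 or limma-voom, 2 with the covariate and 0 without any library in turn. With the covariate, row B4 lay at -0.14 and the B4 family without it at -0.16. On total counts row B4 lay at -0.12.

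When each library was left out, row B4 ranged from -0.54 to 0.71 and the whole B4 family from -0.29 to 0.14. In the same way the difference in the share of SINE counts ran from -0.17 to 0.23 percentage points for ID, from -2.15 to 0.686 for the B4 family without row B4 and from -1.63 to 4.46 for row B4. The ID difference was -0.0690 with all counts outside structural RNA as the denominator. With the ID sum as library size B4A lay at 0.0498, and with the SINE sum ID lay at 0.0305, ID4 at 0.0520, B4A at 0.0855 and RSINE1 at 0.0265. The BC1_Mm ratio kept its direction in 10 of 10 alternatives, among them the B1, MIR and B4-family sums in place of the ID sum. Since the genotypes did not overlap in the ratio to ID counts, leaving out a library could not reverse it. That part of the count is no added evidence. The ID family total kept its direction in 14 of 14, but it was not fitted with the SINE sum as library size, where ID and ID4 changed sign.

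With the replicate number as a block 24 rows were called, BC1_Mm lay at -0.26 (adjusted p = 0.375) and the ID family total at -0.08. Deviations from the genotype means of same-numbered samples correlated at -0.44, -0.39 and 0.02, so the numbers were not used as pairs, and apart from the total of the scRNA family the block changed no call given for the members. Depth limits ID most, with 1863 counts in its lowest library.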
